A study of Mus musculus with 6 samples.

Results

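H3K27ac peaks that HOMER annotated to transcription termination sites (TTS) were examined in mouse quadriceps, a mixed limb muscle. TTS peaks were those whose deposited annotation begins with TTS, a class that HOMER gives to a peak whose centre lies from 100 bp before to 1 kb after the end of a transcript. They numbered 653 of 46988 peaks in the control list and 557 of 40721 in the detrained list, and 250 pairs were TTS in both lists and covered at least 50% of each peak. H3K27ac was measured by ChIP-seq in wild-type male C57BL/6J mice (C57BL/6 in the labels), 8 weeks old at the start. Detrained mice had run voluntarily on a wheel for 4 weeks and were then without the wheel for 72 h before quadriceps was taken, and control mice were sedentary. Each group had 2 H3K27ac libraries, each from the quadriceps of 1 animal, and 1 input library. The labels give another substrain number for each input than for the H3K27ac libraries, so the strain of the inputs is uncertain.

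H3K27ac is the acetylation of a lysine in the tail of histone H3, and it marks active promoters and enhancers. RNA polymerase II runs past the end of a gene while the new transcript is cut and polyadenylated downstream of an AATAAA signal, and the enzyme is released further on. In the compact parts of the mouse genome the end of one gene can lie next to the start of another, and short annotated units such as miRNA hairpins have a start and an end that nearly coincide. A peak in the TTS class is therefore defined by position alone, and the class says nothing of which element is acetylated.

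To show what such a peak can hold, sequences were read from the GRCm38.p6 genome, the build also called mm10, for the TTS pairs with the highest density. AATAAA on the gene's strand lay within the last 50 bases of the transcript for 3 of the 5 densest pairs, and these 30-base stretches are printed with the signal in capitals. The Senp3 stretch is chr11:69673119-69673148 on the minus strand, the 0610009L18Rik stretch chr11:120351155-120351184 on the plus strand, and the Slc23a3 stretch chr1:75125548-75125577 on the minus strand.
Senp3: cctgctctggtcAATAAAggatcctttgaa
0610009L18Rik: ctaaaagcccagAATAAAaagggaactgta
Slc23a3: gggttggaactgAATAAAtgagatttctgc
The signal was followed by 21, 18 and 19 bases up to the transcript end in Senp3, 0610009L18Rik and Slc23a3, respectively. It was not found in that window for Cebpd or the Mir1894 hairpin.

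A neighbour's promoter lay in the same interval in some dense pairs, the Senp3 pair among them. The peak at the end of Senp3, a SUMO-specific protease, also held the start of Eif4a1, an RNA helicase of translation initiation, which lay 687 bp further along the same strand. The peak at the end of Slc25a44, a mitochondrial carrier of branched-chain amino acids, held the start of Pmf1, a kinetochore component, 97 bp from that end and on the same strand. The 250 bases before each start lay inside the control and the detrained peak, at chr11:69672424-69672673 for Eif4a1 and chr3:88410398-88410647 for Pmf1, both on the minus strand. They are printed from the RefSeq promoter table of GRCm38.p6 with GGGCGG or its reverse complement CCGCCC, and CCAAT or its reverse complement ATTGG, in capitals.
Eif4a1: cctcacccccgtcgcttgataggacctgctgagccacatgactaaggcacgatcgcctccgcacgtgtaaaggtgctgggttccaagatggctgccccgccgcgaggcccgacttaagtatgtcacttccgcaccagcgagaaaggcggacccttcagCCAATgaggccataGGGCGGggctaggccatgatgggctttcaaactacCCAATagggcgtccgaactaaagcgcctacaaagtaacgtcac
Pmf1: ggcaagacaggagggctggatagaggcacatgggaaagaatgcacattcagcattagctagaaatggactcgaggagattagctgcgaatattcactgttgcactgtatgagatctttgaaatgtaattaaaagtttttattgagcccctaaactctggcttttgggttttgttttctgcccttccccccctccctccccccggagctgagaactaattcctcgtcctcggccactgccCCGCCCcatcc
The Eif4a1 stretch held GGGCGG on either strand 1 time and CCAAT on either strand 2 times, and the Pmf1 stretch held GGGCGG 1 time and CCAAT 0 times. No TATAAA was found on either strand in these windows. Over the 32851 promoter windows of the same length in the table, 32.7% held GGGCGG, 33.8% held CCAAT and 12.4% held TATAAA on either strand.

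miRNA hairpins formed another kind of member, and the mature miRNAs of 3 loci in TTS pairs are printed to show which they are, with the seed (bases 2 to 8) in capitals. Mir1894 was the densest pair, and Mir199a-2 and Mir150 were chosen after their values were seen, as miRNAs with well-known roles. In RefSeq the mature forms lie at chr17:35917899-35917920 and chr17:35917938-35917959 for miR-1894-5p and miR-1894-3p, at chr1:162217844-162217866 and chr1:162217883-162217904 for miR-199a-5p and miR-199a-3p, and at chr7:45121798-45121819 for miR-150-3p, all on the plus strand.
mmu-miR-1894-5p: cUCUCCCCuaccaccugccucu
mmu-miR-1894-3p: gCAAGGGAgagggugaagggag
mmu-miR-199a-5p: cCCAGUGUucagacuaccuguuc
mmu-miR-199a-3p: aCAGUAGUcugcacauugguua
mmu-miR-150-3p: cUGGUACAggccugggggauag
No seed was shared among these 5 mature sequences. For Mir150 only the 3p form was among the sequences used, so a 5p form is not printed. Of the 22 miRNA pairs, 19 had a mature sequence in the table.

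Depth was similar across the H3K27ac libraries, from 20805019 to 22400894 tags, whereas the inputs held 10812470 tags in control and 21298438 in detrained mice. Peaks were assigned to marker genes by the nearest start. Of 10 skeletal muscle markers, 9 had a peak in each list, and Tnnt3, a fast troponin T gene, had only intron peaks nearest to the starts of other genes. Markers of other cells in muscle tissue also had peaks, with 4 of 4 endothelial and 4 of 4 fibroblast markers in each list and 3 of 4 macrophage markers. The other macrophage marker, Cd68, ended in a TTS pair assigned to the start of Mir1934 (chr11:69661623-69665841), with 78.4 and 79.8 tags per kb per 10000000 in controls and 69.5 and 62.4 after detraining, a log2 ratio of -0.26 per kb that turned to 0.14 per peak as the interval went from 4218 to 5599 bp. The summed pooled tags per 10000000 at the endothelial markers were 1813 in control and 2036 in detrained mice, those at the fibroblast markers 2388 and 2924, and those at the muscle markers 7982 and 8777. Both satellite cell markers had a peak in each list, with summed pooled tags of 176 and 237. The macrophage sums, without that Cd68 peak, were 150.5 in control and 211.6 in detrained mice. Red cell markers had no peak. Of 3 adipocyte markers only Lep had one by nearest start, in the control list, with a sum of 17.4, Plin1 had an exon peak nearest to another start in each list, and Adipoq had none. In bulk tissue, fewer cells of a type cannot be told apart from less acetylation per cell, and the part of these cells in the TTS results was not tested.

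TTS peaks made up 1.39% of the control list (95% Wilson interval 1.29 to 1.5) and 1.37% of the detrained list (1.26 to 1.49), intervals that cover counting error only. They held 1.53% and 1.43% of the pooled tags in listed peaks. Their lengths ran from 500 to 24719 bp in the control list, with a median of 1460 bp, and from 500 to 24060 bp in the detrained list, with a median of 1781 bp. Pooled tags at TTS peaks ranged from 5.66 to 1740 per 10000000 in the control list (median 43.4) and from 6.49 to 1384 in the detrained list (median 58.9). The weakest control TTS peak thus rested on about 25 tags over both libraries and the median one on about 192. The median enrichment over input was 6.41-fold and 5.57-fold, against 6.19-fold and 5.38-fold over every peak of those lists.

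The transcript named in the annotation was matched to RefSeq for 646 of 653 control and 555 of 557 detrained TTS peaks. The peak centre lay inside the HOMER window around the matched end for 632 and 547 of these, and past the end in 90.9% and 91.2%. The median centre was 494 bp past the end in the control list and 477 bp in the detrained list. That window runs from 100 bp before to 1 kb after the end, so these positions largely restate how the class is defined. Most ends were the 3′ end of the gene, within 1 kb of the last end of any of its isoforms, and 33 control and 21 detrained peaks sat at the end of a shorter isoform inside the gene. Protein-coding genes supplied 515 control and 454 detrained TTS peaks, lncRNAs 70 and 57, miRNA hairpins 55 and 43, and other noncoding genes 6 and 1. The median matched coding transcript spanned 16302 bp in the control list and 14649 bp in the detrained list, and the median over RefSeq mRNA accessions was 21219 bp.

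Most TTS peaks overlapped a peak of the other list, 455 (69.7%) of the control and 446 (80.1%) of the detrained ones. Whether these were paired as TTS depended on the label and on the 50% coverage rule. Of the control TTS peaks, 250 (38.3%) were paired with a detrained TTS peak, 107 (16.4%) with a detrained peak of another class, 98 overlapped a detrained peak without meeting the pairing rule and 198 (30.3%) overlapped none. Of the detrained TTS peaks, 250 (44.9%) were paired with a control TTS peak, 114 (20.5%) with another class, 82 overlapped without pairing and 111 (19.9%) overlapped none. Over every peak of the lists, 27.9% in control and 18.0% in detrained mice had no overlapping peak, close to the TTS shares. TTS peaks paired with a peak of any class made up 54.7% and 65.4%, against 56.3% and 64.9% of every peak, and the share of every peak paired within its own class was 49.6% and 57.2%. When 80% of each peak had to be covered, 133 TTS pairs were left. The unmatched TTS peaks were weak, with a median of 14.2 pooled tags per 10000000 in the control and 17.6 in the detrained list, against 77.2 and 77.8 for those paired as TTS. They were also short, with medians of 807 and 1017 bp against 1970 and 2016 bp.

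**Figure D1:**
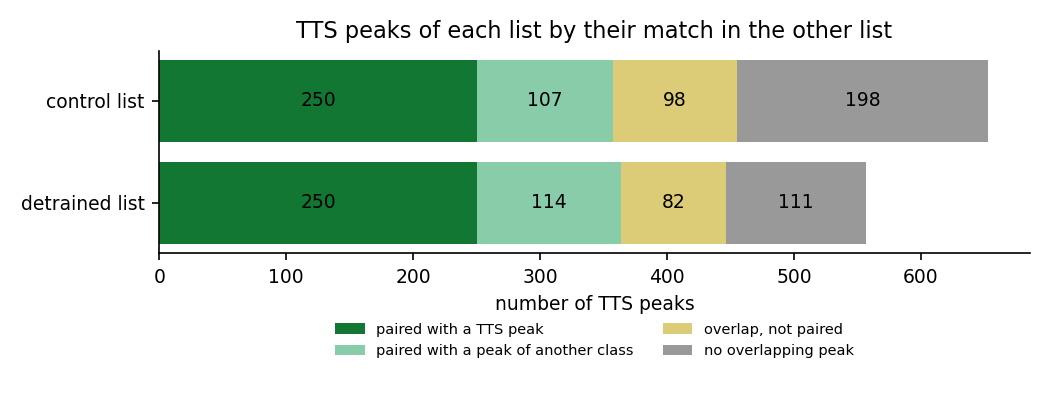
Horizontal bars give the number of TTS peaks in the control and the detrained list, split by their match in the other list. The segment paired as TTS holds 250 peaks in each list, and the segment with no overlapping peak holds 198 in the control and 111 in the detrained list.

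Pairs that were TTS in 1 list only changed class over short distances. The centre of these 221 pairs moved by a median of 335 bp between the lists, against 146 bp for the 250 pairs that were TTS in both and 196 bp for the shared pairs with no TTS call. The partner was a promoter-TSS peak for 32 of the control and 41 of the detrained TTS peaks, and an intergenic peak for 33 and 22. Among the 250 pairs, 240 were assigned to the same transcript in both lists. The other 10 were assigned to different genes, among them Cebpd in the control list and Spidr in the detrained list for a single region.

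By level, TTS peaks stood between distal and promoter classes. Density was taken as tags per kb of peak per 10000000 tags of the library (called tags per kb from here), and compared on the log2 scale. Its median over TTS peaks was 4.75 and 4.84 in the control libraries C2 and C3, and 5.04 and 4.98 in the detrained libraries Ex1 and Ex2. Intron peaks had medians of 4.66, 4.71, 4.84 and 4.8 in the same libraries, and intergenic peaks 4.59, 4.61, 4.71 and 4.69. Promoter-TSS peaks had medians of 5.97, 5.95, 5.98 and 5.90, and exon peaks 5.29, 5.29, 5.47 and 5.37. In all 4 libraries the TTS median was above those of the intron, intergenic and 3′ UTR classes and below those of the exon, non-coding, 5′ UTR and promoter-TSS classes. The mean log2 density of TTS peaks differed from that of every other peak in the same table by -0.01 and 0.00 in the control libraries and by 0.05 and 0.04 in the detrained libraries. Without promoter-TSS peaks in the comparison these differences were 0.12 and 0.12, and 0.18 and 0.16. The 2 tables were normalized separately, so these levels are compared within a table only, and no test was run on them.

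**Figure D2:**
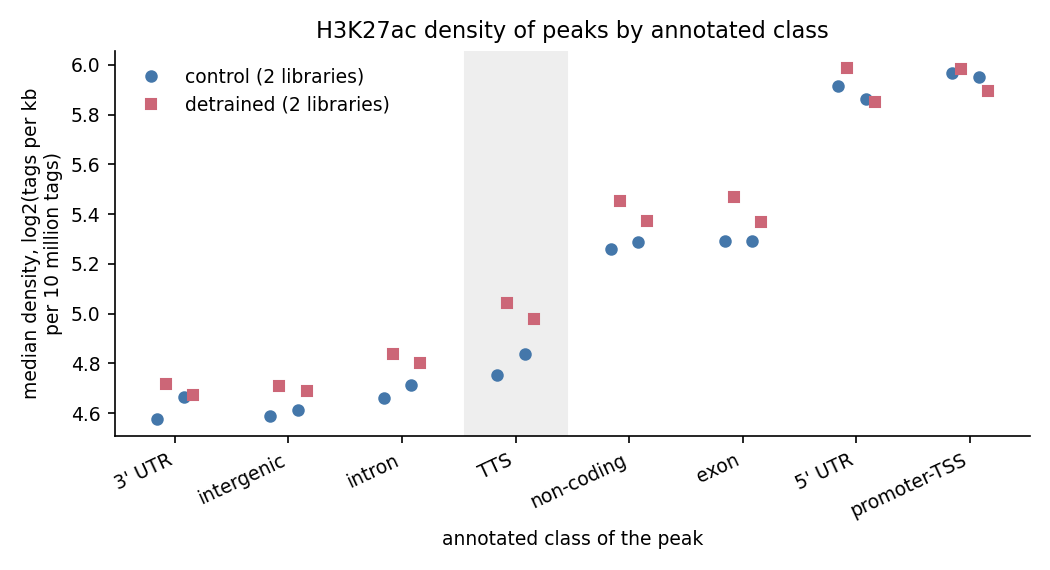
Each point is the median log2 H3K27ac density of 1 library over the peaks of an annotated class, with control libraries as circles and detrained libraries as squares, and the TTS class shaded. The TTS medians, from 4.75 to 5.04, lie between the intron and the non-coding and exon classes.

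The TTS class was a mixture of peaks that also covered an annotated start and peaks that did not. For miRNA hairpins this can be the start of the annotated unit, and where transcription begins was not measured. The interval reached the nearest start in 183 control TTS peaks (28.02%) and in 182 detrained ones (32.7%). The median log2 density of these was 5.79 and 5.80 in controls and 5.84 and 5.78 after detraining. TTS peaks that did not reach a start had medians of 4.46 and 4.52, and of 4.67 and 4.62. The gap, 1.30 in control and 1.16 in detrained mice on the log2 scale, was larger than the difference between the libraries of a group. Among peaks at least 4-fold over input with an adjusted p-value under 0.001, 48.8% of 328 control and 45.5% of 352 detrained TTS peaks reached a start, and the gaps were 0.70 and 0.91. Both kinds lay near the levels of other peaks of like position. Intron peaks that reached a start had medians of 5.81, 5.86, 5.84 and 5.73 in C2, C3, Ex1 and Ex2, and those that did not had 4.53, 4.57, 4.68 and 4.66. Peaks that reached a start were also longer, with a median of 2423 bp against 1287 bp in the control list and 2115 bp against 1614 bp in the detrained list, and the part of length in the gap was not tested.

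Grouping by the distance from the peak centre to the nearest start, which does not use the length, gave the same order. TTS peaks with a start within 1 kb of the centre, 156 in the control and 154 in the detrained list, had medians of 5.70 and 5.67, and of 5.80 and 5.71. From 1 to 5 kb the medians were 4.8 and 4.85, and 5.10 and 5.07. From 5 to 20 kb they were 4.51 and 4.62, and 4.75 and 4.68, and beyond 20 kb they were 4.45 and 4.38, and 4.57 and 4.54. The pooled intron, intergenic and exon peaks had medians of 5.75 and 5.74 within 1 kb and 4.55 and 4.58 beyond 20 kb in the control libraries. They differed more in where they lay, since 8.51% of them had a start within 1 kb in the control list, against 23.9% of TTS peaks.

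**Figure D3:**
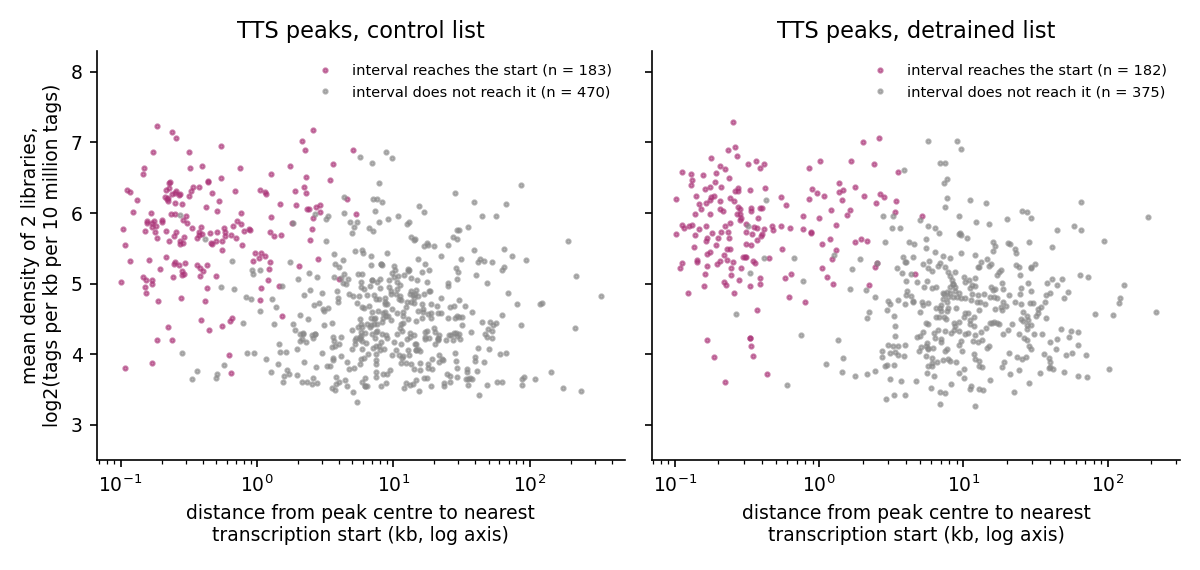
Each point is a TTS peak of the control list (left) or the detrained list (right). The horizontal axis is the distance from its centre to the nearest annotated start, in kb on a log scale. The vertical axis is its mean log2 density over the 2 libraries. Peaks whose interval reaches the start (183 and 182) lie mostly within 1 kb and near a log2 density of 6, and the others (470 and 375) mostly beyond 2 kb and lower.

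The nearest start belonged to the gene that ended there for 313 control and 256 detrained TTS peaks and to another gene for 333 and 299. Where the start of another gene was reached, which was so for 126 control and 130 detrained peaks, that gene lay on the same strand in 110 and 111 cases and on the opposite strand in 15 and 18. HOMER places a peak centred just before a start in the promoter-TSS class and not in the TTS class. Of the TTS peaks nearest to another gene's start, 197 of those 333 peaks in control mice and 200 of those 299 in detrained mice lay downstream of it. Peaks reaching the start of another gene on the same strand had median log2 densities of 5.84 and 5.79 in controls and 5.81 and 5.79 after detraining. Those reaching the start of their own gene, 57 and 51 peaks, had 5.70 and 5.79, and 5.86 and 5.71. The centre lay in the body of another gene for 240 control and 236 detrained peaks, with medians of 5.37 and 5.37, and 5.60 and 5.55. For the 406 and 319 peaks outside any other gene the medians were 4.52 and 4.56, and 4.73 and 4.68.

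Base composition followed the same division. In the central 500 bp, the median GC content was 56.4% in the control and 60.0% in the detrained TTS peaks that reached a start, and 49.0% and 49.4% in those that did not. The ratio of observed to expected CpG had medians of 0.480 and 0.565 in the first kind and 0.211 and 0.231 in the second. Promoter-TSS peaks had 0.762 and 0.761, and intron peaks that did not reach a start had 0.204 and 0.207. AATAAA on either strand was found in this window in 36.4% of control and 39.0% of detrained TTS peaks, against 36.3% and 34.9% of all other peaks. Among TTS peaks that did not reach a start it was found in 40.6% and 46.4%, and among intron peaks that did not, in 41.7% and 40.7%. Over all TTS peaks the AATAAA share thus lay close to that of other peaks in the control list and above it in the detrained list, with no test. The median centre lay 494 and 477 bp past the transcript end, so this central window often did not reach the gene's own signal. The shares therefore cannot tell whether TTS peaks hold that signal.

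Of the gene types, miRNA hairpins had the highest median density at TTS peaks in all 4 libraries. The hairpins are short, so the start and the end of the annotated unit fall in the same peak, and the median distance to the nearest start was 510 bp in the control and 321 bp in the detrained list, against 7041 and 6563 bp for coding genes. The median log2 density at miRNA ends was 5.34 and 5.38 in controls and 5.86 and 5.64 after detraining, against 4.70 and 4.82, and 4.99 and 4.93, at coding ends. Their median length was 2293 and 2623 bp, against 1441 and 1718 bp at coding ends. lncRNA ends were close to coding ends, with 4.75 and 4.74, and 4.91 and 4.95. H3K27ac does not measure the RNA, so nothing was read about miRNA levels.

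Within the 22 miRNA pairs the density ran from 27.3 to 130.3 tags per kb in C2, up to 154.7 in C3, up to 168.3 in Ex1 and down to 25.6 in Ex2. The medians were 53.6, 56.8, 60.2 and 51.7, against 36.1, 39.5, 38.3 and 36.7 at the 203 coding pairs. Mir199a-2, which encodes miR-199a in the Dnm3os transcript, had densities of 54.0 and 51.2 in controls and 52.8 and 45.7 after detraining, so the groups overlapped. Mir150, which encodes a miRNA known from lymphocytes, had 45.3 and 57.3, and 60.3 and 52.2, and the groups overlapped there too.

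Over the 250 TTS pairs, the level was close in both groups. The density per pair had medians of 37.6 and 40.4 tags per kb in the control libraries and of 39.9 and 38.8 in the detrained ones. It ran from 12.6 to 134.2 in C2 and from 12.2 to 145.1 in Ex2. The mean log2 density was 5.37 ± 0.05 (SD, n = 2 libraries) in control and 5.35 ± 0.05 (SD, n = 2 libraries) in detrained mice. The difference, detrained minus control, was -0.021 on the log2 scale (-1.44%), less than the spread of 0.051 between libraries within groups. The other 26182 shared pairs differed by -0.026, and the TTS pairs differed from them by 0.006, against a spread of 0.008. Densities here were scaled to the total tags of each library, because the tables were normalized separately. The difference changed sign with the scaling. It was 0.029 when scaled to the tags in listed peaks and 0.0061 when centred on the median of all shared peaks. With 2 libraries a group an exact permutation test cannot give a two-sided p under 0.333, so none is reported.

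Differences of single pairs lay on both sides of 0. The log2 ratio had a median of 0.00, quartiles of -0.17 and 0.14, and a range from -1.12 to 0.85, and 126 of 250 pairs (50.4%) were lower in detrained mice, against 54.0% of all 26432 shared pairs. Over TTS pairs the densities of the 2 groups had a Spearman rank correlation of 0.935, across pairs that share libraries and are not independent replicates. Subsets differed little. The mean change was -0.034 for the 96 pairs that reached a start and -0.013 for the 154 that did not, -0.021 for coding, 0.018 for lncRNA and -0.053 for miRNA ends.

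A pair was called when its groups were at least 1.5-fold apart and the libraries of the groups did not overlap. Of the 250 TTS pairs, 3 were called higher in detrained mice (1.20%), against 1.10% of all shared pairs, and 4 were called lower (1.60%), against 2.06% of all shared pairs. Without the fold limit, 44 TTS pairs (17.6%) had both detrained libraries above both control libraries, against 21.3% of all shared pairs, and 61 (24.4%) had both below, against 27.2%. The call depends on peak length: with tags per peak in place of tags per kb, 10 TTS pairs (4.0%) were called higher, against 5.51% of all shared pairs, and 18 (7.2%) lower, against 5.08%. With input subtracted 10 (4.0%) were called lower, against 3.36%. Scaled to the tags in listed peaks, 3 (1.2%) were called higher, against 1.69%, and 4 (1.6%) lower, against 1.45%. The counts also moved when a library was left out, at TTS pairs and over all shared pairs. Without C2, 3 (1.2%) were higher, against 1.61%, and 11 (4.4%) lower, against 4.08%. Without C3, 8 (3.2%) were higher, against 2.44%, and 8 (3.2%) lower, against 2.21%. Without Ex1, 3 (1.2%) were higher, against 1.31%, and 8 (3.2%) lower, against 3.16%. Without Ex2, 6 (2.4%) were higher, against 2.30%, and 11 (4.4%) lower, against 2.64%.

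**Figure D4:**
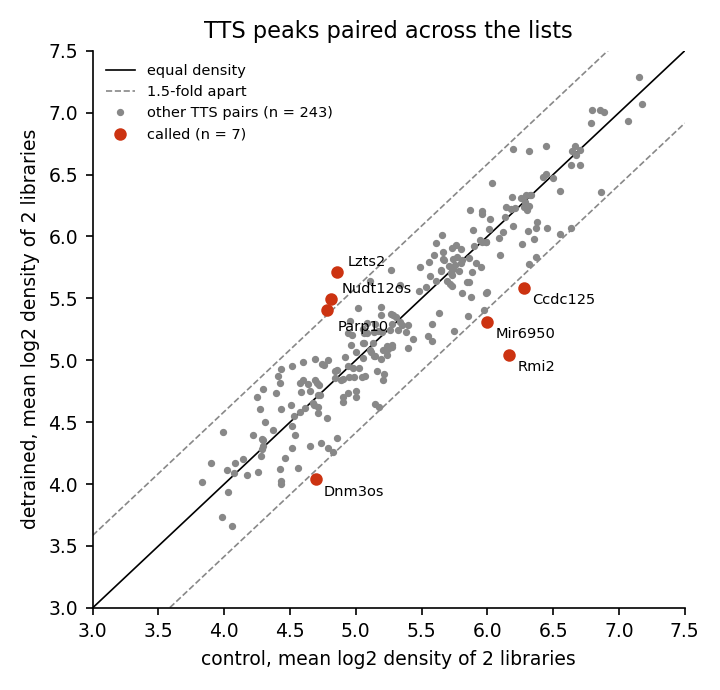
Each point is a TTS pair, plotted by its mean log2 density over the 2 control libraries and over the 2 detrained libraries, with the line of equal density solid and 1.5-fold dashed. Most points lie between the dashed lines, and the 7 called pairs are named, with 3 above and 4 below.

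Rmi2, a subunit of a complex that maintains genome stability, had the largest difference (chr16:10839967-10846546 in the control list, an interval that spanned the 3′ end of the gene). Its density was 71.5 and 71.8 in controls and 27.9 and 39.1 after detraining. The groups did not overlap, and the log2 ratio was -1.12 per kb and -1.32 per peak, with intervals of 6579 and 5732 bp. Enrichment over input was 8.34-fold in control and 4.83-fold in detrained mice at Rmi2 and 7.83-fold and 5.21-fold at Mir6950. These folds were taken against separate inputs, and their median over all 26432 shared pairs was 6.53 in control and 5.91 in detrained mice. At the other called pairs they were 5.26-fold and 6.42-fold at Dnm3os, 8.17-fold and 8.49-fold at Ccdc125, 6.15-fold and 6.00-fold at Lzts2, 5.49-fold and 3.94-fold at Parp10, and 4.4-fold and 4.81-fold at Nudt12os. The folds of Dnm3os and Ccdc125, called lower, were thus the larger in detrained mice. Those of Parp10 and, by little, Lzts2, both called higher, were the smaller.

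Mir6950 (chr14:69691640-69694397) had 64.4 and 63.7 in controls and 39.8 and 39.7 after detraining. Both detrained values lay under the control values, with a log2 ratio of -0.69 per kb and, short of the call, -0.58 per peak. Dnm3os, a noncoding RNA that carries miRNA loci of the Dnm3 gene, was called lower at its 3′ end (chr1:162225631-162226365). Its density was 26.9 and 24.9 in controls and 14.9 and 18.2 after detraining, a log2 ratio of -0.65 per kb and -0.85 per peak. The call was lost with a pseudocount of 5 tags (-0.54) and without Ex1 (-0.51). The Mir199a-2 pair, of the same transcript, had a log2 ratio of -0.10 per kb and 0.17 per peak and was not called. The Dnm3os peak was weak, with 18.8 pooled tags per 10000000 in control and 10.4 in detrained mice.

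Ccdc125, a coiled-coil protein gene, was the remaining pair called lower (chr13:100697032-100698893). Its density was 66.4 and 90.8 in controls and 49.2 and 46.9 after detraining, a log2 ratio of -0.69 per kb. The interval was 1861 bp in the control and 2823 bp in the detrained list, and per peak the log2 ratio was -0.09. Without C3 it was -0.47 per kb, which is short of the call.

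Of the pairs called higher, Lzts2, a leucine zipper protein gene (chr19:45026358-45029120), had 31.0 and 27.1 in controls and 46.2 and 59.3 after detraining. The groups did not overlap and the log2 ratio was 0.85 per kb, but 0.17 per peak, with an interval of 2762 bp in the control and 1718 bp in the detrained list. Parp10, a mono-ADP-ribosyltransferase (chr15:76232116-76233211), had 30.8 and 24.5, and 44.0 and 40.8, a log2 ratio of 0.62 per kb. Its interval was 1095 bp in the control and 646 bp in the detrained list, and per peak the log2 ratio changed sign, to -0.14. It was also short of the call with input subtracted (0.49), without C3 (0.46) and without Ex1 (0.57). Its nearest start was that of Plec, which encodes the cytoskeletal linker plectin.

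Nudt12os, the opposite-strand transcript of Nudt12, was called higher (chr17:59011917-59013063). Its density was 25.8 and 30.7 in controls and 50.2 and 40.5 after detraining. The log2 ratio was 0.68 per kb and 0.91 per peak, and it was short of the call without C2 (0.55) and without Ex1 (0.52). Its peaks had pooled tags of 32.1 and 60.5 per 10000000. The nearest start was that of Nudt12, 832 bp from the control centre.

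The 10 densest TTS pairs were not called. Mir1894 (chr17:35915428-35920828) had densities of 130.3 and 154.7 in controls and 168.3 and 145.1 after detraining. The noncoding 0610009L18Rik (chr11:120346780-120355743) followed with 134.2 and 155.6, and 141.4 and 127.3. In both pairs the groups overlapped. The Senp3 pair whose interval held the Eif4a1 start (chr11:69671125-69673211) had 127.5 and 141.5, and 124.1 and 119.8, so both detrained values lay under the control values, with a log2 ratio of -0.14 per kb. Per peak it turned to 0.04, with intervals of 2086 and 2356 bp, and without C3 it was -0.06. The pair at the ends of Cebpd, which encodes the transcription factor C/EBP delta, and of Spidr, a DNA repair scaffold (chr16:15886286-15892764), had 116.7 and 120.2, and 117.9 and 139.6.

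The next 6 had the following densities. Slc23a3, of the ascorbate transporter family (chr1:75123766-75126267), had 105.4 and 127.9 in controls and 139.3 and 120.8 after detraining. Slc26a1, a sulfate and anion exchanger (chr5:108667916-108670279), had 109.2 and 113.4, and 130.9 and 128.8, so the detrained libraries lay above the control libraries by 0.22 on the log2 scale per kb, but by 0.05 per peak, with intervals of 2363 and 2097 bp. Bad, a pro-apoptotic member of the BCL family (chr19:6950345-6954383), had 110.4 and 110.1, and 131.8 and 110.3.

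Mrpl58, a peptidyl-tRNA hydrolase of the mitochondrial ribosome (chr11:115411588-115414181), had 96.1 and 113.2, and 108.5 and 99.96. The noncoding 2700012I20Rik (chr9:57071215-57077413) had 93.2 and 110.4, and 107.7 and 104.7. Slc25a44, whose pair held the Pmf1 start printed earlier (chr3:88408700-88411301), had 94.9 and 109.5, and 103.0 and 99.5. The groups overlapped at Slc23a3, Bad, Mrpl58, 2700012I20Rik and Slc25a44. Of the 10 densest pairs, those of Slc23a3, Slc26a1, Bad and Mrpl58 did not reach an annotated start, with the nearest 8874, 5699, 9802 and 7035 bp from the control centre.

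**Figure D5:**
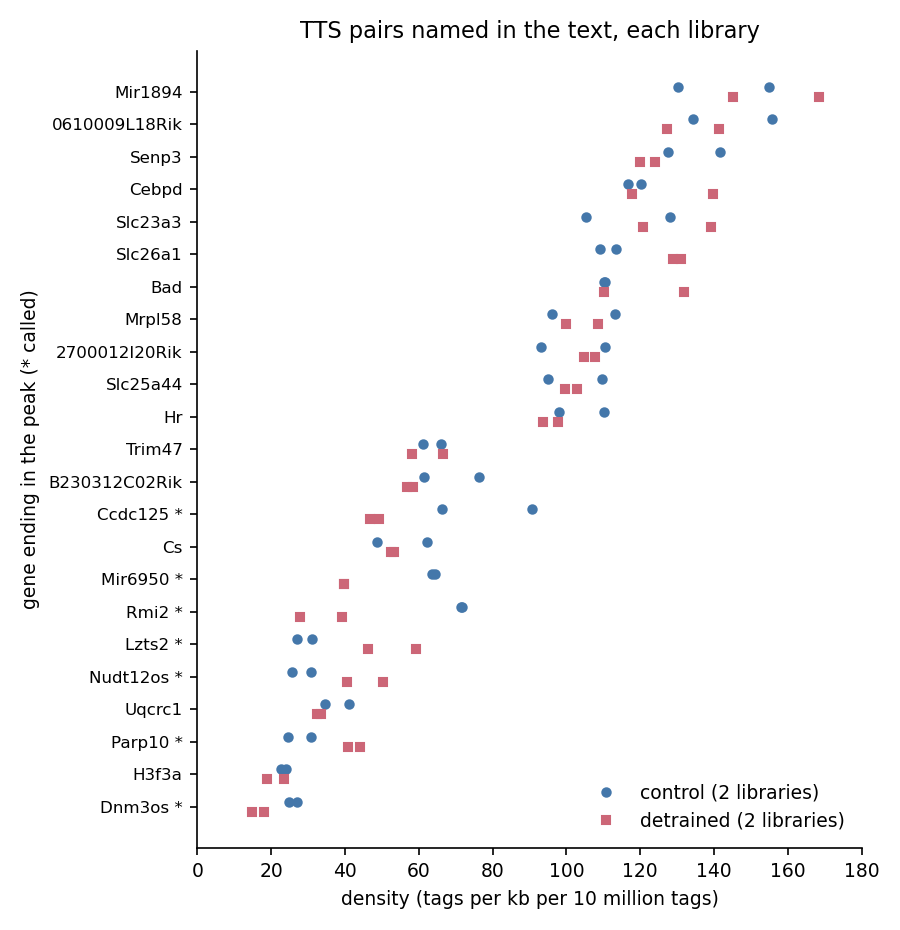
Points give the density of each named TTS pair in the 2 control libraries (circles) and the 2 detrained libraries (squares), in tags per kb per 10000000 tags, with called pairs starred. Values run from 14.9 at Dnm3os to 168.3 at Mir1894, and only the 7 starred pairs met the 1.5-fold call.

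The longest TTS pairs were broad domains rather than peaks at a single end. At B230312C02Rik, a noncoding gene, the peak centre lay at -15310 bp from the start of Mir1a-1hg, the host of the muscle miRNA miR-1a-1. The control interval spanned 24719 bp (chr2:180357935-180382654) and the detrained interval 24060 bp. Its density was 61.3 and 76.2 in controls and 58.3 and 56.8 after detraining, with a log2 ratio of -0.25 and no overlap. The ratio was -0.09 without C3 and -0.41 without C2. Trim47, a ubiquitin ligase gene (chr11:116098282-116111520), spanned 13238 and 13374 bp, with 61.1 and 66.1, and 66.6 and 58.1. Hr, the corepressor hairless (chr14:70569097-70579332), spanned 10235 and 10161 bp, with 98.1 and 110.3, and 93.7 and 97.6, the detrained values being lower, with a log2 ratio of -0.12 that was -0.04 without C3 and -0.21 without C2.

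Genes of muscle function mostly had the nearest start to a peak of some class, but few had a TTS peak. Over 13 gene lists with 312 genes in all, 20 genes had a TTS peak in at least 1 list of peaks, 12 in control and 11 in detrained mice, and 3 had one in both. The share was 6.41%, against 3.56% (932) of the 26180 RefSeq genes, most of which are not muscle genes. Among 35 contractile and Z-disc genes, 31 were the nearest start of a peak of any class in each list, but a TTS peak was found only at Neb in control mice and at Tcap and Tnnt1 in detrained mice. Of 31 oxidative phosphorylation genes 1 had a TTS peak, of 25 fatty acid oxidation and citrate cycle genes 3, of 25 glycolysis and glycogen genes 2, and of 22 excitation-contraction coupling genes 2. Of 29 myogenic and fibre-type regulators 2 had one, of 27 early-response factors 2, of 37 cytosolic ribosomal protein genes 1, of 12 histone genes 2 and of 20 chaperones 2. None was found among 19 circadian clock genes, 20 secreted factors and 10 genes of ubiquitin and proteolysis.

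Of the listed genes, 3 ended in a TTS pair and none of these pairs was called. Uqcrc1, a core subunit of respiratory complex III (chr9:108948594-108950923), had 34.6 and 41.1 in controls and 33.4 and 32.4 after detraining, with a log2 ratio of -0.20 and no overlap. The ratio was -0.025 per peak, with intervals of 2329 and 2623 bp, and -0.07 without C3. Cs, the citrate synthase gene (chr10:128360909-128365799), had 48.7 and 62.3, and 53.2 and 52.4, so the groups overlapped. H3f3a, which encodes the histone variant H3.3 (chr1:180801346-180802464), had 22.7 and 23.9, and 18.9 and 23.6, and overlapped as well.

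Other listed genes were called TTS in 1 list only. Tcap, the Z-disc protein telethonin, had a detrained peak of 6876 bp that also reached its own start, with densities of 79.9 and 77.5, and it overlapped control signal without meeting the pairing rule. Tnnt1, the slow troponin T gene, had a detrained peak with 25.3 and 24.1 that paired with a control peak called 3′ UTR. Cacng1, the gamma subunit of the muscle calcium channel, had a control peak with 33.1 and 34.4 that paired with a detrained 3′ UTR peak. Ppp1r3a, a glycogen-targeting phosphatase subunit, had a control peak of 6220 bp with 35.7 and 43.6 that paired with an intergenic one. The regions at Tnnt1, Cacng1 and Ppp1r3a were thus acetylated in both lists under different labels.

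Others reached a neighbour's start. The detrained TTS peak of Rps18, a ribosomal protein gene, had 33.3 and 34.5 and held the start of B3galt4, and that of Fosl1, an AP-1 subunit, had 86.7 and 75.9 and held the start of Ccdc85b. The peak at the end of the histone gene H2az1 had 101.5 and 95.3 and held the start of Dnajb14. By contrast, the giant thin-filament gene Neb had a control TTS peak of 500 bp with 12.1 and 12.3 and no overlapping detrained peak. The control peaks of Aldoa, Jsrp1, Egr1 and Hspb8 and the detrained peak of Fabp3 also had none, with densities between 10.6 and 28.7.

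Among TTS peaks with no overlapping peak in the other list, those with the most pooled tags were moderate in level. In the control list they were Mir6541 (chr14:62863682-62868503) with 101.1 pooled tags per 10000000, Mir5618 (chr9:7783617-7786479) with 65.6 and Mettl11b, a gene of the N-terminal methyltransferase family (chr1:163701574-163703892), with 64.5. Their densities were 20.1 and 21.97 at Mir6541, 25.6 and 20.3 at Mir5618, and 24.8 and 31.2 at Mettl11b. In the detrained list they were Gm20199 (chr9:59476364-59478473) with 59.6, Prrt1 (chr17:34631669-34633931) with 59.3 and the olfactory receptor gene Olfr70 (chr4:43692981-43696566) with 52.4. Their densities were 30.5 and 26.4 at Gm20199, 25.3 and 27.3 at Prrt1, and 11.6 and 17.5 at Olfr70. The tables give no values outside listed peaks, so the level of these 6 in the other group was not measured here.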

How the data were processed

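H3K27ac ChIP-seq was measured in quadriceps with 2 libraries and 1 input per group. Reads had been mapped by the authors to mm10, with Bowtie (1.2 in the submitters' processing notes). They kept unique reads at 1 tag per position, called peaks with HOMER on the pooled libraries of each group against that group's input, and annotated them. The deposited signal is pooled tags per 10000000. The deposited log2 values per library are regularized log values from the replicate peak step of HOMER, shrunken for weak peaks. The deposited fold over input (log2) and adjusted p-value of each peak were used only for filters and as descriptions. Columns C2 and C3 could be assigned to the control group only. Intervals are as the tables give them, with length as end minus start.

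Tags per library were estimated by sharing pooled tags in proportion to total tags and 2 to the power of the log2 value. Density was (tags + 0.5) per kb per 10000000 tags. A peak reached a start when the deposited distance was at most the peak's length from centre to edge. Pairs were one-to-one overlaps covering at least 50% of each peak. Tests between groups were not made, since the tables used here hold no counts per library and were normalized separately.

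Members and gene lists were chosen with earlier results of these data known. A further marker list is not reported here. Named pairs were the 10 densest, the called ones (up to 5 each way), the 3 longest, listed genes (up to 4 per list), and the 3 strongest unmatched TTS peaks per list. Alternatives covered threshold, list size, overlap, annotation, normalization, peak length, pseudocount, input and leaving out each library. Steps were tested on simulated data. The simulated pairs had equal interval lengths in both lists, so calls at unequal lengths were not tested this way. Software was scipy 1.17.1, pandas 2.3.3, numpy 2.4.6 and matplotlib 3.10.9 under Python 3.11.15.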

Additional observations from a re-analysis of the deposited data

How the results depend on the processing

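Stricter peaks (at least 4-fold over input, adjusted p-value under 0.001) left 328 control and 352 detrained TTS peaks, of which 48.8% and 45.5% reached a start, and 177 TTS pairs (54.0% and 50.3% of the TTS peaks of each list). Covering 80% of each peak left 133 pairs (20.4% and 23.9%), pairs that were TTS in at least 1 table numbered 471, and partners of any class gave 54.7% and 65.4%. Matched by accession, 40.9% of nearest starts in control and 38.0% in detrained mice were those of the annotated transcript.

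The change relative to the other shared peaks (log2 scale) was -0.0090 with tags per peak, -0.0077 with stricter peaks and -0.0090 with TTS in at least 1 table. Calls higher numbered 10 with tags per peak (4.0%, against 5.51% of all shared pairs), 1 with stricter peaks (0.56%, against 0.78%) and 0 at 80% coverage (against 0.26%). Calls lower numbered 18 with tags per peak (7.2%, against 5.08%), 10 with input subtracted (4.0%, against 3.36%) and 9 with TTS in at least 1 table (1.91%, against 2.06%). At 80% coverage 3 of 133 TTS pairs were called lower (2.26%, against 0.65% of all shared pairs), a share above that of all pairs that rests on 3 pairs. With tags per peak the Parp10 pair turned to -0.14, and pairs that were not called also changed sign: Senp3 (-0.14 to 0.04), Cebpd (0.12 to -0.07), Slc23a3 (0.16 to -0.02), Bad (0.13 to -0.01), 2700012I20Rik (0.07 to -0.02) and H3f3a (-0.14 to 0.03).

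The mean log2 density of TTS peaks against the other peaks was 0.0049 with tags per peak, 0.027 with stricter peaks, 0.117 without promoter-TSS peaks and 0.0068 by the median in control mice. It was 0.027, 0.037, 0.169 and 0.091 in detrained mice. The gap between TTS peaks that reached a start and those that did not was 0.70 and 0.91 with stricter peaks, and 1.11 and 1.01 when split at 1 kb from a start; these alternatives for the gap were added after the data were seen.

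Leaving out each library gave 3 to 8 pairs called higher (1.2% to 3.2%, against 1.31% to 2.44% of all shared pairs) and 8 to 11 called lower (3.2% to 4.4%, against 2.21% to 4.08%), with fewer values required not to overlap. The mean change of TTS pairs ranged from -0.058 without C2 to 0.016 without C3. The cause of these shifts was not tested, apart from the smaller sets that stricter peaks and 80% coverage leave by construction. The groups were made up of different mice, so there was no pairing of libraries to use, and no test between the groups was made. The weakest peaks rest on few tags and shrunken log2 values, so spread within a group is understated there.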
